A study of Mus musculus with 8 samples.

Results

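The NANOG fusion protein and the remodelling ATPase BRG1 were compared region by region inside 1 kind of reprogramming cell. Mouse embryonic fibroblasts carrying the OG2 reporter, an Oct4 promoter driving GFP, had been infected with retroviruses for Oct4 and for NanogBiD, a NANOG with the BRG1-interacting domain of SS18 placed at its N terminus and a FLAG tag for detection, and were taken at day 5. The libraries were made by CUT&Tag, in which an antibody guides a transposase to cut and tag the DNA around its target. A FLAG antibody mapped the fusion and a BRG1 antibody mapped the ATPase, and 1 merged peak list was used for each. The compared arm, NanogWT, received Oct4 and FLAG-tagged NANOG without the domain, in the same fibroblasts on the same day, and is used only as a reference. The cells were an infected bulk culture, and the share of cells carrying both viruses was not analysed here.

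Overlapping FLAG and BRG1 peaks were merged, which gave 79581 regions in the NanogBiD arm, of 123412 regions found in any of the series' 8 peak lists. A region was called joint when it held at least 1 peak of each list (48089 regions), FLAG-only when it held FLAG peaks alone (26386 regions) and BRG1-only when it held BRG1 peaks alone (5106 regions). The FLAG list held 74782 peaks and the BRG1 list 53748. Each list came from 1 merged library, so no spread between replicates was available and no test of a difference was made. The 95% intervals printed with shares are Wilson intervals and cover counting error only, and regions of 1 list share their library, so they are not independent. Depth was unknown, because the lists carry no tag totals. The lists held no peak with a score (minus 10 times log10 of the caller's p) under 50, so a region called for 1 factor alone may hold signal of the other below that limit. No control library is named for the calling.

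NANOG is a homeodomain transcription factor of the pluripotent epiblast and of embryonic stem cells, where it shares many sites with OCT4 and SOX2. BRG1, encoded by Smarca4, is the ATPase of BAF complexes, which slide and evict nucleosomes at enhancers and promoters, and SS18 is a BAF subunit that binds it. Fibroblast enhancers are often occupied by AP-1 and TEAD factors, and active ones carry acetylated histone H3 lysine 27 (H3K27ac) and monomethylated lysine 4 (H3K4me1).

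The sequences below are shown to give the letters that lay under the summits, the points of highest signal, at pluripotency and somatic genes. They were picked for holding a match, so they do not show how often a class held a motif. Each is 101 bases of the mm10 plus strand centred on a summit, from the reference genome and not from reads, with the searched motif in capitals. The first 4 came from joint regions and hold an AP-1 match (TGANTCA), at Klf4, Klf5 and Klf2, genes of Krüppel-like factors of the pluripotency network, and at Esrrb, a gene of an orphan nuclear receptor of that network. In the Klf5 window the second run in capitals is a SOX match (ACAATG or ACAAAG). Distances are from the nearest annotated start of the gene, negative for upstream.
Klf4 at +5.45 kb, chr4:55526274-55526374: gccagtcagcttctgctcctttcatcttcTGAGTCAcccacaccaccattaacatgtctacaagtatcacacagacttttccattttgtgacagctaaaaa
Klf5 at +25.6 kb, chr14:99324703-99324803: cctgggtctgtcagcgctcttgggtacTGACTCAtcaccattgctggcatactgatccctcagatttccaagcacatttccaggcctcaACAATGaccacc
Klf2 at -7.99 kb, chr8:72310998-72311098: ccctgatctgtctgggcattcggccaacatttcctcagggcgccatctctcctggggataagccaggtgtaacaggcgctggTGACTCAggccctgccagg
Esrrb at -22.7 kb, chr12:86398930-86399030: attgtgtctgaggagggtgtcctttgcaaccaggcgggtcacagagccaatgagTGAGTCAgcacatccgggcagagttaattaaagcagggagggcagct

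The next 3 came from FLAG-only regions. Those at Tfcp2l1, a transcription factor gene of naive pluripotency, and at Dppa3, a gene of germ cells and the early embryo, hold the OCT octamer (ATGCAAAT), which lies on the minus strand in the Dppa3 window. That window is also at -14.5 kb of Gdf3, a TGF-beta family ligand gene. The window at Dab2, a gene for an endocytic adaptor, holds an AP-1 match at the summit and a SOX match near its start. The last window, from a BRG1-only region near Chchd3, a gene for a mitochondrial inner membrane protein, is centred on the BRG1 summit and holds a TEAD match (GGAATG).
Tfcp2l1 at -2.37 kb, chr1:118625526-118625626: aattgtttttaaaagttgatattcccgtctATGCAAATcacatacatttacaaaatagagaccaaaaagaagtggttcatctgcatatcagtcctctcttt
Dppa3 at -1.79 kb, chr6:122624573-122624673: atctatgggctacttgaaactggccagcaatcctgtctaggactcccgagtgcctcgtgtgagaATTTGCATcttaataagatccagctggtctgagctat
Dab2 at +13.6 kb, chr15:6436699-6436799: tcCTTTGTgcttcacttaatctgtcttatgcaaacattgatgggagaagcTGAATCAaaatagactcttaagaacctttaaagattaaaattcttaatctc
Chchd3 at +93.5 kb, chr6:32710490-32710590: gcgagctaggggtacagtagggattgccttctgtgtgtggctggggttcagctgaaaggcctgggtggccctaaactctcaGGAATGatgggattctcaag

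Most regions of the NanogBiD arm held both factors. Joint regions made up 60.4% (60.1 to 60.8) of its regions, FLAG-only regions 33.2% and BRG1-only regions 6.42%. In the NanogWT arm, 25726 of 63510 regions were joint (40.5%), 32963 were FLAG-only (51.9%) and 4821 were BRG1-only (7.59%). In both arms regions with BRG1 alone were the smallest class, and in the NanogWT arm FLAG-only regions outnumbered joint regions. The NanogWT lists held 58940 FLAG and 30859 BRG1 peaks, so the class sizes also follow the sizes of the lists. Counted over BRG1 peaks, 90.5% overlapped a FLAG peak in NanogBiD cells and 84.4% in NanogWT cells. Joint regions of the NanogBiD arm covered 63.8 Mb with a median length of 1144 bp, against 19.5 Mb and 679 bp for FLAG-only regions and 3.44 Mb and 590.5 bp for BRG1-only regions. Of the joint regions, 98.3% held exactly 1 peak of each list, so merging rarely chained peaks together. When regions were instead built from windows of 100 bp either side of each summit, 45.0% were joint.

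Joint regions lay at gene starts about as often as BRG1-only regions and more often than FLAG-only regions. A promoter is here the stretch within 2 kb either side of an annotated transcript start, which takes in 10.9% of chromosomes 1 to 19 and X. Promoters held 31.1% (30.7 to 31.5) of joint regions, 14.4% of FLAG-only regions and 29.5% of BRG1-only regions. Introns held 35.1%, 43.2% and 35.5% of the classes in the same order, and intergenic sequence 31.7%, 39.96% and 32.3%. FLAG-only regions thus stood nearer to the genome's own share of promoters than the other classes. That share counts bases, while a region counts when any part of it touches a promoter, so the 2 measures are unlike. The 16.7 percentage points between joint and FLAG-only regions became 8.65 points with summit windows, which have equal lengths, and 25.4 points when each list was cut to its 20000 best-scoring peaks. The small deficit of BRG1-only against joint regions, -1.64 points, turned into an excess of 9.35 points for peaks with a score of at least 100, of 13.6 points for the 20000 best-scoring peaks and of 6.06 points with summit windows, so no order of those classes holds across settings.

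**Figure D1:**
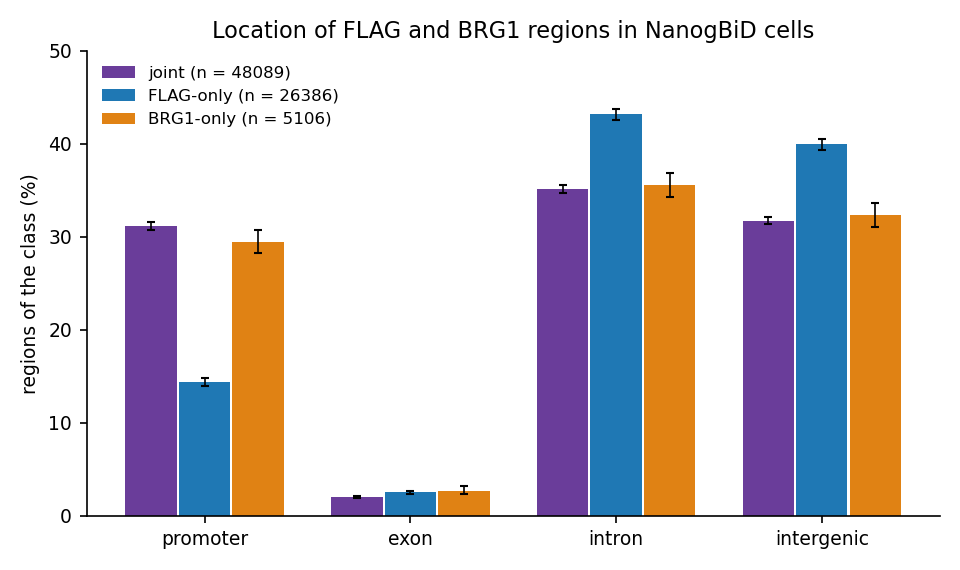
Share (%) of joint, FLAG-only and BRG1-only regions of NanogBiD cells in each annotation class, with 95% Wilson intervals as error bars. The FLAG-only bar is the lowest at promoters, with 14.4% against 31.1% and 29.5%, and the highest in introns and intergenic sequence.

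FLAG-only regions also lay farthest from genes. The median distance to the nearest protein-coding start was 18.9 kb for joint, 33.5 kb for FLAG-only and 15.3 kb for BRG1-only regions. Within 1 kb of such a start lay 21.4% of joint, 5.50% of FLAG-only and 19.2% of BRG1-only regions. Beyond 50 kb lay 32.1%, 41.7% and 26.3%. Joint regions of the NanogWT arm stood at promoters in 47.0% of cases and its FLAG-only regions in 14.4%, so FLAG-only regions had the same promoter share in both arms while joint regions did not.

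FLAG-only regions were mostly not flanks of a BRG1 peak. Their median distance to the nearest BRG1 peak was 12.2 kb, with 3.10% lying within 500 bp and 22.6% within 5 kb. BRG1-only regions lay a median of 7.78 kb from the nearest FLAG peak, with 6.66% within 500 bp and 35.9% within 5 kb. A joint region lay within 10 kb of 40.3% of FLAG-only regions, of 42.5% of BRG1-only regions and of 42.3% of joint regions themselves. Chromosome X was thinner than any autosome in every class, with 5.25 joint regions per Mb against 15.7 to 23.7, 4.13 FLAG-only against 8.55 to 11.9 and 0.708 BRG1-only against 1.65 to 2.79. Joint regions made up 52.0% of the regions on chromosome X and 58.8 to 62.5% of those on each autosome. The embryos were of either sex, and the part of X dosage in this was not tested.

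Peaks of 1 factor alone were low. Summit height is the caller's count of overlapping tags at the summit, and classes were compared by it within 1 list. Heights set side by side between the arms are not scaled to depth. FLAG summits had a median of 19 tags (quartiles 14 to 25) in joint and 11 tags (10 to 14) in FLAG-only regions, and BRG1 summits a median of 13 (10 to 18) in joint and 9 (8 to 11) in BRG1-only regions. The middle ranges of FLAG heights met at 14 tags, and those of BRG1 heights overlapped at 10 to 11 tags. A score under 60, close to the limit of 50, was found for 25.7% of FLAG-only and 45.8% of BRG1-only regions, against 3.56% of FLAG and 10.3% of BRG1 peaks in joint regions. Tall exceptions existed: 1631 FLAG-only regions (6.18%) reached the joint median of 19 FLAG tags, up to 48 tags, and 677 BRG1-only regions (13.3%) reached the joint median of 13 BRG1 tags, up to 49 tags.

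The share of FLAG peaks that overlapped a BRG1 peak rose with each step of FLAG height. Away from promoters it was 19.4% at 7 to 9 tags, 57.6% at 14 to 15 tags and 96.8% at 25 to 34 tags, and all 402 peaks of 50 tags or more were joint. At promoters it was 39.1%, 77.9% and 98.0% in the same bins, and 204 of 204 in the highest bin. Promoter peaks thus overlapped BRG1 more often than other peaks of like height up to 25 to 34 tags. Over all places, 99.1% of the 7478 tallest FLAG peaks and 22.9% of the 7478 lowest held BRG1. In NanogWT cells the promoter shares at the same heights were close to these, 37.2%, 70.5% and 92.8%, while the non-promoter shares were 9.28%, 29.5% and 70.7%. The gap between arms at matched tag heights was therefore wider away from promoters, at 28.1 percentage points against 7.34 for 14 to 15 tags. For 10 to 11 tags it was 11.8 points away from promoters and -0.47 points at promoters. Tag heights were not scaled to depth, so equal heights in the 2 arms need not mean equal occupancy, and a deeper BRG1 library in 1 arm cannot be told apart from more BRG1 at FLAG peaks.

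**Figure D2:**
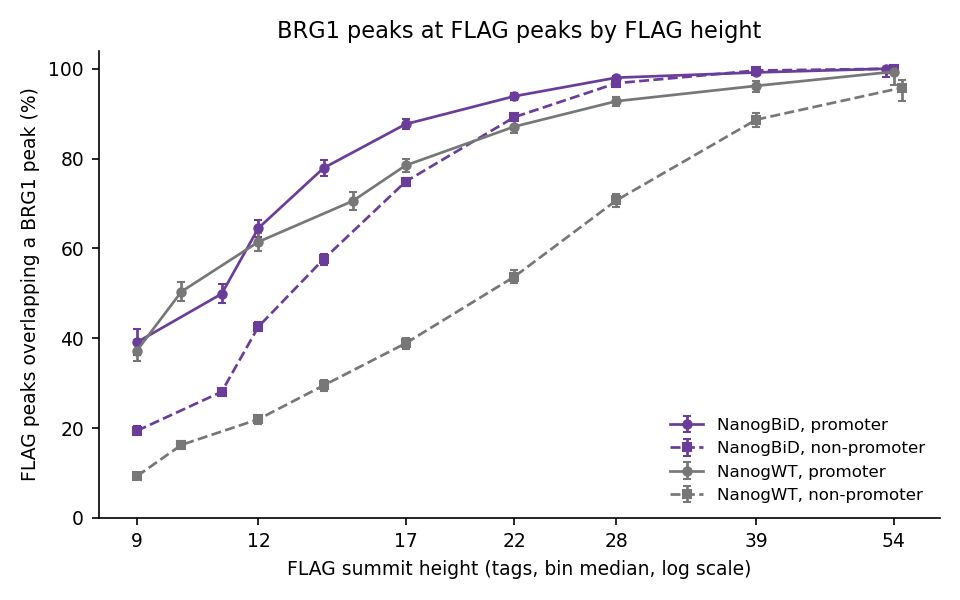
Share (%) of FLAG peaks that overlap a BRG1 peak, by FLAG summit height (median of each bin in tags, log axis), for promoter and non-promoter peaks of the NanogBiD and NanogWT arms, with 95% Wilson intervals. The non-promoter line of NanogWT runs lowest, with 29.5% at 14 to 15 tags against 57.6% in NanogBiD, and both NanogBiD lines reach 100% at 50 tags or more.

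Read from the BRG1 side, the share with the partner also rose with height, from a higher start. Of the lowest BRG1 peaks (6 to 9 tags) 75.6% overlapped a FLAG peak, of those with 20 to 24 tags 99.01%, and all 64 of the tallest bin did. BRG1 peaks without FLAG were thus mostly low ones.

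Within joint regions the heights of both factors moved together in NanogBiD cells. Spearman's rho between FLAG and BRG1 height was 0.756 over 48089 joint regions, between 0.646 and 0.783 on single chromosomes, 0.803 at promoters and 0.752 elsewhere. In NanogWT cells rho was 0.445 over 25726 joint regions, 0.402 to 0.493 by chromosome, 0.631 at promoters and 0.411 elsewhere. Over the same 22084 regions that were joint in both arms, rho was 0.821 in NanogBiD and 0.403 in NanogWT cells. Across arms, NanogBiD FLAG against NanogWT BRG1 gave 0.406 and NanogWT FLAG against NanogBiD BRG1 gave 0.610, against 0.673 for the 2 FLAG lists and 0.590 for the 2 BRG1 lists. BRG1 of NanogBiD cells therefore tracked FLAG of the same cells more closely than it tracked BRG1 of the other arm. These are correlations across regions, which share libraries, mappability and accessibility, and they are descriptions without a test. Median BRG1 height rose from 9 tags in the lowest to 39 tags in the highest FLAG bin in NanogBiD cells, and from 10 to 24 tags in NanogWT cells.

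**Figure D3:**
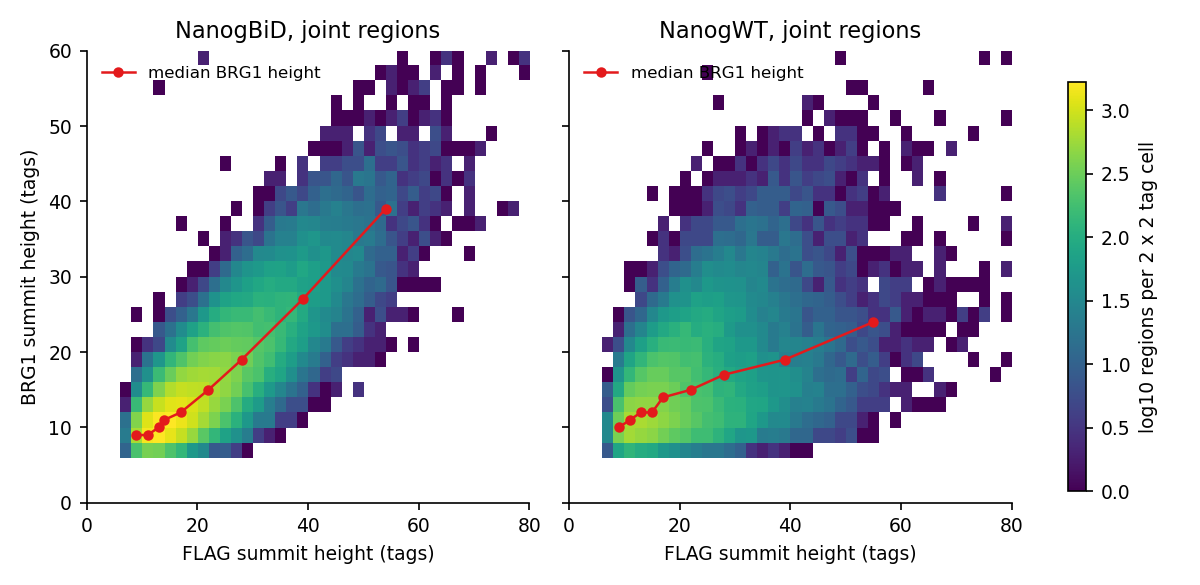
Number of joint regions (colour, log10 scale) by FLAG and BRG1 summit height in tags for the NanogBiD and NanogWT arms, with the median BRG1 height per FLAG height bin as a red line and heights past the axes not drawn. The NanogBiD cloud is narrow around a line that climbs from 9 to 39 BRG1 tags (rho 0.756), and the NanogWT cloud is broader around a line from 10 to 24 tags (rho 0.445).

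Summits of both factors lay close together. The nearest FLAG and BRG1 summits of a joint region were a median of 69 bp apart in NanogBiD cells (quartiles 24 to 151 bp), and 61.5% (61.1 to 62.0) lay within 100 bp. In NanogWT cells the median was 101 bp (34 to 214) and 49.99% lay within 100 bp. The same factor in the 2 arms was a useful scale, with 75 bp for FLAG and 97 bp for BRG1. FLAG and BRG1 summits inside NanogBiD cells were thus about as near to each other as the FLAG summits of the arms were. FLAG lay a median of 101 bp from H3K27ac and 113 bp from H3K4me1 summits of NanogBiD cells, and BRG1 103 and 116 bp. Over regions joint in both arms, the FLAG to BRG1 distance was 72 bp in NanogBiD and 98 bp in NanogWT cells.

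**Figure D4:**
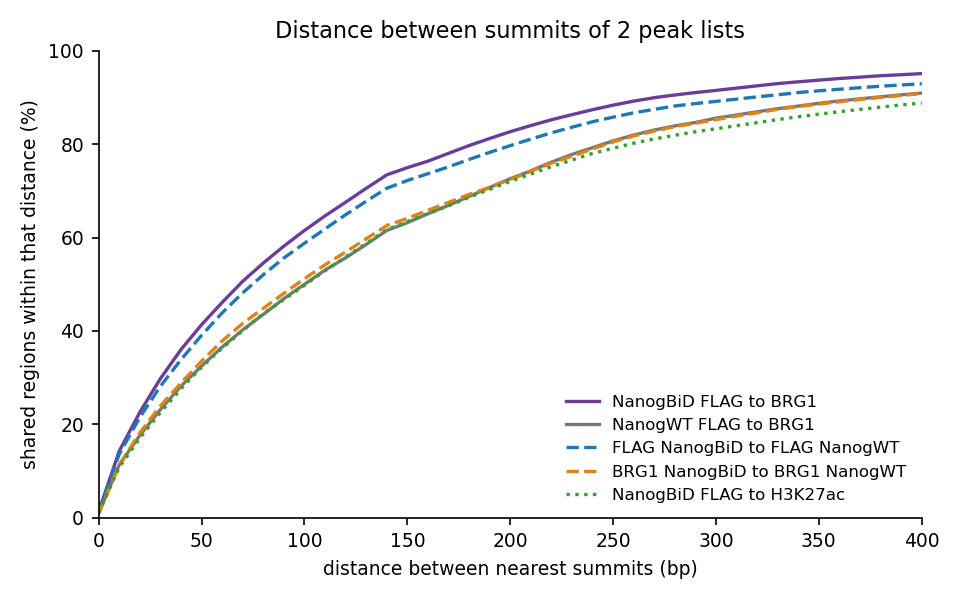
Cumulative share (%) of shared regions whose nearest summits lie within the distance on the horizontal axis (bp), for 5 pairs of peak lists. The NanogBiD FLAG to BRG1 curve is the highest (61.5% within 100 bp) and lies just above FLAG of the 2 arms (58.8%), while FLAG to BRG1 in NanogWT cells reaches 49.99%.

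Taller FLAG summits were nearer to BRG1 summits. The median distance fell from 99 bp at 7 to 9 FLAG tags to 82 bp at 14 to 15 tags, 53 bp at 25 to 34 tags and 34 bp at 50 tags or more. A summit with more tags is placed more precisely, and the part of that precision in the trend was not tested. Promoter regions had wider distances (78 bp) than other regions (66 bp) in NanogBiD cells, while in NanogWT cells the order was 94 and 106 bp. In 11691 joint regions the FLAG summit lay within 2 kb of a protein-coding start. There 40.2% of FLAG summits and 30.4% of BRG1 summits fell between -100 and +99 bp of the start, and 12.9% against 18.3% fell from +100 to +499 bp. The start used was the one nearest to the FLAG summit, which favours FLAG, so these shares do not show which factor was more spread. BRG1 lay upstream of FLAG at 48.7% (47.8 to 49.7) of these regions whose summits differed, close to an even split, and both summits were on the same base at 1.41% of all.

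Active marks followed joint occupancy. H3K27ac peaks of the same cells overlapped 66.03% of joint, 15.8% of FLAG-only and 33.7% of BRG1-only regions, and H3K4me1 peaks 61.6%, 26.3% and 43.8%. Both marks were found at 50.2%, 9.16% and 22.2%, and neither at 22.5%, 67.0% and 44.8%. So most FLAG-only regions carried no called mark. At promoters H3K27ac overlapped 86.7%, 32.8% and 57.9% of the classes. With summit windows the H3K27ac gap between joint and FLAG-only regions fell from 50.2 to 35.9 points. The gap of BRG1-only to joint regions, -32.4 points, shrank to -13.4 points for peaks scoring at least 100, to -8.38 points with summit windows and to -2.84 points over the 20000 best-scoring peaks, so its size depended on these settings while its sign did not.

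The difference between joint and FLAG-only regions was also present at like FLAG height. At 14 to 15 FLAG tags, 55.9% of joint and 19.03% of FLAG-only regions overlapped H3K27ac, and at 25 to 34 tags 81.8% and 26.9%. Split by place at 14 to 15 tags, the shares were 83.5% and 34.4% at promoters, and 44.2% and 16.5% elsewhere. Away from promoters the joint share climbed from 32.5% at 7 to 9 tags to 76.7% at 25 to 34 tags, and the FLAG-only share from 9.30% to 24.9%. When H3K27ac peaks were merged together with the FLAG and BRG1 peaks, which joins some neighbouring regions, 31607 merged regions held all 3, and in them BRG1 height had a rho of 0.558 with H3K27ac height and FLAG height one of 0.346. In the 29608 regions merged likewise with H3K4me1 these were 0.400 and 0.262, so in both sets the mark's height ran closer to BRG1 than to FLAG.

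**Figure D5:**
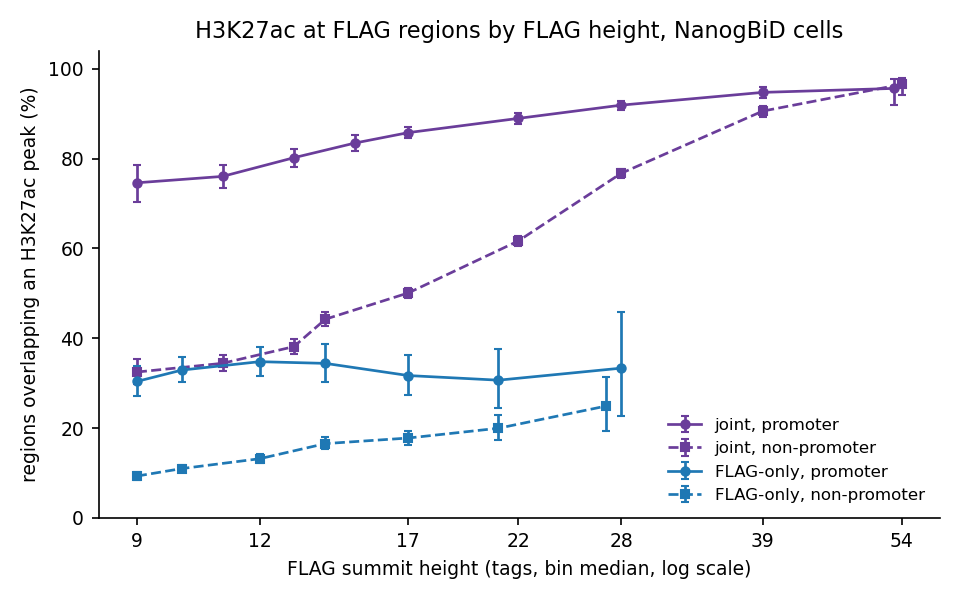
Share (%) of FLAG regions that overlap an H3K27ac peak in NanogBiD cells by FLAG summit height (median of each bin in tags, log axis), for joint and FLAG-only regions at promoters and elsewhere, with 95% Wilson intervals. At each height and place the joint points lie above the FLAG-only points, as at 14 to 15 tags away from promoters with 44.2% against 16.5%.

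The classes differed in what the other arm showed at the same places. NanogWT BRG1 peaks overlapped 76.5% of joint promoter regions and 36.0% of joint non-promoter regions of NanogBiD cells. NanogWT H3K27ac peaks overlapped 50.3% of joint, 11.9% of FLAG-only and 30.8% of BRG1-only regions. The order of the classes by H3K27ac was thus the same in cells whose NANOG lacked the domain.

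AP-1 sites gained most percentage points over their surroundings among the searched motifs at non-promoter summits. Within 50 bp of the summit on each side, TGANTCA occurred at 13.5% of joint and 9.76% of FLAG-only regions (FLAG summits), and at 9.79% of BRG1-only regions (BRG1 summits). In windows of equal length 1 kb away the shares were 3.14%, 3.26% and 2.95%. At matched FLAG heights of 14 to 19 tags, joint and FLAG-only regions had 13.2% and 10.6%. The octamer ATGCAAAT, bound by OCT4, occurred at 3.07%, 2.52% and 1.56%, against 0.67%, 0.67% and 0.47% at 1 kb. At matched heights the octamer shares of joint and FLAG-only regions were 3.06% and 2.91%, so the octamer stood out from its surroundings while these 2 classes differed little. The composite OCT-SOX motif, which overlaps the octamer, was found in 67 joint, 30 FLAG-only and 2 BRG1-only regions. The classes held 33118, 22589 and 3597 non-promoter windows, so these few matches do not rank the classes.

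SOX matches were fewer in BRG1-only regions, whose windows were centred on BRG1 summits while those of the other classes were centred on FLAG summits. Class and centring factor cannot be told apart in this difference. TEAD and RUNX matches differed little between classes. SOX matches were at 18.6%, 18.9% and 14.2%, against 14.6%, 14.5% and 13.6% at 1 kb, TEAD matches at 7.36%, 6.90% and 7.06%, and RUNX matches (TGTGGT) at 10.6%, 10.4% and 9.65%. CTCF matches were rare, at 0.254%, 0.173% and 0.445%. At promoters the ETS motif CCGGAAG was at 3.58% of joint, 1.08% of FLAG-only and 1.86% of BRG1-only summits, and CRE (TGACGTCA) at 0.642%, 0.158% and 0.332%. All motifs were searched on both strands, and a match says only that the letters are present. Base composition moved with those promoter motifs, with a median GC content of 57.4%, 45.5% and 56.4% in the promoter windows and at least 5 CpG in 49.5%, 14.8% and 39.5%. Away from promoters GC content was 41.6%, 41.6% and 46.5%. The part of base composition in the motif shares was not tested. Summits lay in masked repeats for 10.4%, 13.3% and 12.9% of regions, against 24.9 to 25.7% at 1 kb.

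The highest-scoring joint regions all carried both marks and were in both NanogWT lists. The promoter region at Zbtb20, a gene of a zinc finger repressor (chr16:42874410-42877068), held summits of 77 FLAG and 61 BRG1 tags 1 bp apart. The promoter region at Ppp2r3d (chr9:124422484-124426245), named for a regulatory subunit of protein phosphatase 2A, held 47 and 50 tags 131 bp apart. The tallest of the named regions, with 91 FLAG and 163 BRG1 tags, lay on the noncoding gene Gm26917 (chr17:39842926-39848911), 106 kb from the nearest protein-coding gene Esp38. Gm26917 overlaps a copy of ribosomal RNA sequence, which the genome holds many times, so its height cannot be assigned to 1 locus. Away from promoters the regions were at Inpp5f, a phosphoinositide phosphatase gene (intron, chr7:128670767-128673855, 85 and 71 tags on the same base), near Dip2c (chr13:9238987-9240976, 55 and 57 tags on the same base) and near Arl14 (chr3:69176719-69179406, 48 and 41 tags 24 bp apart).

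The highest-scoring FLAG-only regions carried fewer marks than these. At promoters they were at Dock8, a guanine nucleotide exchange factor gene (chr19:25163886-25165403), Hdx (chrX:111696339-111697394) and Rmdn2 (chr17:79614777-79616033), each with 18 FLAG tags. Dock8 had H3K4me1 alone, Hdx H3K27ac alone and Rmdn2 both marks, and NanogWT cells had a FLAG peak at each and a BRG1 peak at Hdx and Rmdn2. The region in Dock8 lay 8.76 kb from the nearest Dock8 start and counted as a promoter through a small nucleolar RNA gene, Gm24252. The others lay far from protein-coding starts, near Cdh8, a cadherin gene (chr8:100488559-100489925, 20 tags, -1073 kb), Car8 (chr4:8339344-8340724, 19 tags, -101 kb) and Gm43517 (chr12:49907675-49908896, 25 tags, 523 kb), and these 3 had neither mark. BRG1-only promoter regions of highest score were at Slc35f4 (chr14:49524834-49525800, 17 BRG1 tags), Clvs1 (chr4:9269225-9270019, 16 tags) and Prmt8, an arginine methyltransferase gene (chr6:127767467-127768506, 17 tags). Those described elsewhere lay in an intron of Phf21b (chr15:84829026-84829956, 20 tags) and between genes near Chchd3 (chr6:32709937-32710914, 16 tags). Among these regions, FLAG heights reached 25 tags in FLAG-only regions, against at least 47 in the joint regions above. BRG1 heights reached 20 tags in BRG1-only regions, against at least 41. The choice by score bears on this contrast, and in their whole classes FLAG-only regions reached 48 and BRG1-only regions 49 tags.

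Of 21755 protein-coding genes, 11425 (52.5%) had a joint region at the start site, within 2 kb either side, 2428 (11.2%) a FLAG-only region and 1280 (5.88%) a BRG1-only region. Over the gene body with 20 kb either side the shares were 76.0%, 49.6% and 21.8%. Most genes with FLAG-only regions at the start also had a joint region there, since 1048 genes had FLAG-only without joint and 796 BRG1-only without joint, while 8594 had none. By nearest gene, 13861 genes were nearest to at least 1 joint region, 8999 to a FLAG-only and 3889 to a BRG1-only region. Only 1131 of 15579 genes were nearest to FLAG-only regions alone and 399 to BRG1-only regions alone, against 5449 with joint regions alone and 2570 with all 3 classes.

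Some genes were nearest to many regions, often over wide stretches around them. The genes named here were chosen after their values were seen. Pde4d, a cAMP phosphodiesterase gene, was nearest to 59 joint and 26 FLAG-only regions, and Tenm4, a teneurin gene, to 45 and 39. The 1030 genes nearest to 10 or more joint regions held 32.8% of joint regions, the 439 with as many FLAG-only regions held 23.3% of those, and no gene had 10 BRG1-only regions, the most being 9 at Tns3, a tensin gene.

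The start sites of the cells' own markers were checked through H3K27ac. Of 26 fibroblast genes, 24 had an H3K27ac peak at the start, the exceptions being Loxl2 and Prrx1, and of 20 epithelial genes 9 did, with Cdh1 and Epcam among those without, against 60.4% of all protein-coding genes. The marks thus matched the fibroblast label.

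Genes of the pluripotency network held joint regions about as often as genes in general. Of 28 genes, 20 (71.4%) had a joint region in the locus, the gene body with 20 kb either side, against 76.0% of all genes. FLAG-only regions lay in 17 of 28 loci against 49.6% of all genes, and BRG1-only regions in 3 of 28 against 21.8%. At start sites 13 of 28 (46.4%) were joint against 52.5%. Those loci held 44 joint, 26 FLAG-only and 3 BRG1-only regions, with a median FLAG height of 16 tags in joint and 12.5 tags in FLAG-only regions. Of the 44 joint regions 29 carried H3K27ac, against 66.03% of joint regions in the whole genome, and 8 of the 26 FLAG-only regions did, against 15.8%. NanogWT cells had a FLAG peak at 32 of the 44 joint regions, against 75.7% genome-wide, a BRG1 peak at 21 of them, against 48.6%, and a FLAG peak at 4 of the 26 FLAG-only regions, against 32.1%. The joint regions of these loci were thus close to joint regions in general.

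The Krüppel-like genes were bound at their starts by both. Klf4 held 25 FLAG and 22 BRG1 tags at its start (chr4:55529966-55534223), 20 and 17 tags at +5.45 kb and 16 and 13 tags at +16.8 kb, with a FLAG-only summit of 19 tags between them at +6.77 kb. The region at +5.45 kb, whose AP-1 letters are printed above, had no mark, and NanogWT cells had FLAG but no BRG1 peak there. Klf2 held 22 and 19 tags at its start and 17 and 17 tags at -7.99 kb, where NanogWT cells had neither peak. Klf5 held 23 and 19 tags at its start and 30 and 21 tags at +25.6 kb, with summits 27 bp apart and both marks.

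Some loci of the list held several classes and others joint regions alone. Tdgf1, which encodes a NODAL co-receptor, had a joint region of 33 FLAG and 24 BRG1 tags 4 bp apart at -0.48 kb and a FLAG-only region of 24 tags at -1.30 kb. Tet1, an enzyme gene for oxidising 5-methylcytosine, held 6 joint regions (the tallest with 36 and 18 tags), 4 FLAG-only regions of 11 to 22 tags and 1 BRG1-only region of 9 tags. Tbx3, a T-box factor gene, held 28 and 32 tags 4 bp apart at its start and no region of the other classes. Nr5a2, an orphan nuclear receptor gene, had 24 FLAG and 7 BRG1 tags in 1 region near the start with summits 1546 bp apart, so overlap of peaks there did not mean a shared summit. Sall4, a zinc finger factor gene, held 17 and 16 tags 12 bp apart at +13.7 kb and 14 and 11 tags at the start.

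Other members lacked joint regions. Tfcp2l1 held FLAG-only regions alone, of 24 tags at -2.37 kb (the octamer window above) and 13 tags at +0.13 kb, both with H3K27ac. NanogWT cells had a BRG1 peak at the region at +0.13 kb. Prdm14, a gene of a PR-domain regulator, held a FLAG-only region of 15 tags at -7.39 kb, and Mycn, a MYC family gene, a BRG1-only region of 10 tags. No region of any class lay at Sox2, Fgf4, Dppa2, Dppa4 or Nr0b1. Esrrb held 4 joint regions of 11 to 16 FLAG tags, none of them with a FLAG or BRG1 peak in NanogWT cells. Dppa5a, a germ cell and stem cell gene, held a FLAG-only region of 22 tags at +3.24 kb that was taller than its joint region (15 and 10 tags).

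Nanog and Pou5f1 need care because the cells carry added copies of their sequences. Nanog held 13 FLAG and 15 BRG1 tags at -4.79 kb and 12 and 9 tags in an exon at +5.77 kb, where reads from the retroviral coding sequence cannot be told apart from the gene. Pou5f1, which encodes OCT4, held a FLAG-only summit of 44 tags at -2.02 kb (chr17:35503194-35504992) and a joint region of 65 and 67 tags at +4.48 kb (chr17:35510754-35515083). These were tall for their scores of 108 and, in the joint region, 127 (FLAG) and 70.2 (BRG1). The OG2 reporter holds Oct4 sequence, so reads from it and from the gene cannot be told apart. Both FLAG summits lay in masked repeats, and their windows lay outside annotated exons. Neither region overlapped a NanogWT FLAG or BRG1 peak, though a NanogWT FLAG peak of 15 tags (chr17:35500340-35503166) ended just short of the FLAG-only region. A NanogWT H3K4me1 peak overlapped the FLAG-only region.

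A second list took 15 genes that the study itself followed, so their counts are not independent of these samples. Joint regions lay in 12 of the 15 loci, 5 of them being members of 1 microRNA cluster, Mir302, that share the same regions, against 76.0% of all genes. The cluster held 39 FLAG and 31 BRG1 tags 6 bp apart at +7.71 kb of Mir302a (chr3:127552422-127553873) and 30 and 18 tags at -0.63 kb. The first lay at the starts of the protein-coding genes Larp7, in which the cluster lies, and Zgrf1, and had both FLAG and BRG1 peaks in NanogWT cells, while the second had a FLAG but no BRG1 peak there. Thbd, the gene of thrombomodulin, held 35 and 25 tags 2 bp apart at -1.14 kb, with both marks, and Dab2 held 4 joint regions of 15 to 23 FLAG tags and 4 FLAG-only regions of 9 to 22 tags. Foxb1, a forkhead gene, held FLAG-only regions alone (9, 10 and 9 tags), without marks or NanogWT peaks. Olig3 and Sox2 held none.

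Other gene lists set the scale, beside the 76.0% of all genes with a joint region in the locus. Joint regions lay in the loci of 25 of 26 fibroblast genes, with the tallest at Fn1 (fibronectin, 76 FLAG and 39 BRG1 tags), Acta2 (smooth muscle actin, 63 and 41) and Vim (vimentin, 54 and 52). They lay at 20 of 20 AP-1 and TEAD pathway genes, among them Fos (56 and 46 tags), Jun (55 and 42) and Ccn1 (53 and 39), and at 27 of 27 BAF subunit genes, with Arid1b (53 and 38) and Smarca4 itself (40 and 31). Epithelial genes had 15 of 20, led by the desmosome gene Dsp (57 and 24), and germ layer and trophoblast genes 11 of 20, led by Sox1 (34 and 27). Ribosomal protein genes had 49 of 50, led by Rps19 (45 and 45). Olfactory receptor genes, silent outside the nasal epithelium, had a joint region in 115 of 1135 loci and no region of any class in 943. At start sites the joint counts were 21 of 26 fibroblast, 18 of 20 AP-1 and TEAD, 24 of 27 BAF, 8 of 20 epithelial, 6 of 20 germ layer, 44 of 50 ribosomal and 19 of 1135 olfactory receptor genes, against 52.5% of all genes.

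FLAG-only and BRG1-only regions were found in every list, and least often at olfactory receptor genes. FLAG-only regions lay in 17 of 26 fibroblast, 11 of 20 epithelial, 13 of 20 AP-1 and TEAD, 16 of 27 BAF, 5 of 20 germ layer, 27 of 50 ribosomal and 102 of 1135 olfactory receptor loci, against 49.6% of all genes. BRG1-only regions lay in 8, 3, 8, 10, 4, 14 and 35 of them in that order, against 21.8%. At start sites, FLAG-only regions lay at 7 of 28 pluripotency, 4 of 26 fibroblast, 5 of 20 epithelial, 1 of 20 AP-1 and TEAD, 4 of 27 BAF, 1 of 20 germ layer, 5 of 50 ribosomal and 14 of 1135 olfactory receptor genes, against 11.2% of all genes. Lists differ in gene length and no test of a list was made.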

How the data were processed

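CUT&Tag libraries of FLAG and BRG1 in NanogBiD and NanogWT cells, with H3K27ac and H3K4me1 of the same cells, were used as deposited. Per the submitters' processing notes the tools were Trim Galore 0.6.4, Bowtie2 2.4.5, SAMtools 1.16.1 and MACS 1.4.2 on mm10. The authors merged replicates before calling, kept duplicate reads once and gave, per peak, a score and, per summit, a signal, the tag height. Neither was scaled to depth, so weak signal in a shallow library can be missing from a list.

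Peaks overlapping by at least 1 bp were merged into regions and annotated with GENCODE vM21 (GRCm38). Scripts ran in Python 3.11.15 with pandas 2.3.3, numpy 2.4.6, SciPy 1.17.1 and pysam 0.24.0, and were tested on simulated data with known classes, which were all recovered (6000 sites, 0 wrong). Named regions were the 3 promoter and 3 non-promoter regions of highest score per class. Named genes were the pluripotency and study genes with a region and, in other lists, 2 to 4 members with the tallest summits. Sequences were windows of these with a searched motif. Some members picked by these rules are not reported here. The members and gene lists were chosen with earlier results of these data known. Also tried were a score minimum of 100, the 20000 best-scoring peaks, summit windows of 100 bp, gaps of up to 500 bp merged, promoters of 1 kb, chromosomes 1 to 19 and X alone, score in place of height, start sites in place of loci, and fixed FLAG heights.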

Additional observations from a re-analysis of the deposited data

How the results depend on the processing

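With a score minimum of 100, the 20000 best-scoring peaks and summit windows of 100 bp, in that order, the joint share (60.4%) became 58.2, 63.3 and 45.0%, the BRG1 height ratio of joint over BRG1-only regions (1.44) became 1.31, 1.25 and 1.27, and the summit distance (69 bp) became 66, 61 and 51 bp. Summit windows overlap only where summits lie close, so the setting itself limits the last distance. The promoter gap of joint over FLAG-only regions (16.7 points) became 21.1, 25.4 and 8.65 points, that of BRG1-only over joint regions (-1.64) turned to 9.35, 13.6 and 6.06, the H3K27ac gap of joint over FLAG-only regions (50.2) became 48.3, 40.2 and 35.9, and that of BRG1-only over joint regions (-32.4) became -13.4, -2.84 and -8.38. The FLAG height ratio (1.73) became 1.44 and 1.29 under the first pair of settings. With gaps of up to 500 bp merged, the joint share was 61.5%, the promoter gap 17.4 points and the H3K27ac gaps 51.3 and -33.9 points. Promoters of 1 kb gave a promoter gap of 17.5 points. Score in place of height moved the BRG1 gap between the tallest and lowest FLAG peaks from 76.2 to 79.4 points. Start sites in place of loci lowered the pluripotency genes with a joint region from 20 to 13. Both fixed FLAG heights were chosen after seeing the data. At 14 to 15 tags the H3K27ac gap was 36.9 points, and at 14 to 19 tags the AP-1 gap was 2.57 in place of 3.70 points and the RUNX gap turned from 0.19 to -0.92 points. The SOX gap of joint over FLAG-only regions moved from -0.288 to -1.125 points at 14 to 19 tags. The cause was not tested. Of 59 alternatives 21 stayed within the counting interval or margin, 34 moved with the same direction and 4 reversed.

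No paired analysis was possible because the labels give no replicate numbers and each group has 1 merged library. Depth is unknown, so heights and list sizes limit every comparison between lists, and absence from a list is no measure of absent binding.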
